A study of Mus musculus with 10 samples.

Results

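The small leucine-rich proteoglycans studied here were 9 mouse genes, Dcn, Lum, Bgn, Fmod, Aspn, Ogn, Prelp, Omd and Podn. They were chosen by name as the members of this matrix family, and each symbol matched 1 Ensembl gene, so they make up 9 of the 28987 genes listed. RNA was sequenced from cultures labelled primary white adipocytes, grown to confluence from enzyme-digested inguinal fat of male C57BL/6 mice aged 6 to 8 weeks. The 10 libraries fell into 5 groups of 2, all treated for 24 h. The groups were lipopolysaccharide (LPS, a bacterial cell-wall component that activates Toll-like receptor 4) at 100 ng/ml, norepinephrine (the sympathetic transmitter that drives fat breakdown) at 1 mM, the B-cell survival cytokine BAFF at 500 ng/ml, its relative APRIL at 500 ng/ml, and saline. The labels give no genetic change in any group. Whether a group's pair of libraries represents different mice or dishes is not stated, so every p-value measures only the spread between these libraries, which may be technical.

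Small leucine-rich proteoglycans are secreted proteins built around leucine-rich repeats, and many carry chondroitin, dermatan or keratan sulfate chains. They bind collagen fibrils and set fibril diameter and spacing, and several bind TGF-beta. Soluble biglycan and decorin are also known as ligands of Toll-like receptors on immune cells. In fat they are made mainly by stromal and progenitor cells, with a contribution from adipocytes. By protein class, Dcn (decorin), Bgn (biglycan) and Aspn (asporin) form the decorin-type class. Lum (lumican), Fmod (fibromodulin), Prelp and Omd (osteomodulin, also called osteoadherin) form the fibromodulin-type class. Ogn (osteoglycin, or mimecan) and Podn (podocan) belong to other classes.

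Most of the genes lie in clusters. In mm10 coordinates (GENCODE M21), Dcn (ENSMUSG00000019929, chr10:97479609-97518143, plus strand) and Lum (ENSMUSG00000036446, chr10:97565128-97572703, plus) are 47.0 kb apart. Aspn (ENSMUSG00000021388, chr13:49544443-49567565, plus), Omd (ENSMUSG00000048368, chr13:49582462-49592822, plus) and Ogn (ENSMUSG00000021390, chr13:49608046-49624501, plus) follow each other, with gaps of 14.9 and 15.2 kb. Prelp (ENSMUSG00000041577, chr1:133910304-133921414, minus) and Fmod (ENSMUSG00000041559, chr1:134037254-134048277, plus) are 115.8 kb apart. Bgn (ENSMUSG00000031375, chrX:73483602-73495933, plus) and Podn (ENSMUSG00000028600, chr4:108014791-108096445, minus) stand alone. Aspn, Omd and Ogn lie inside Cenpp, which runs on the opposite strand and shares 7 of 2354 exon bases with Aspn and 0 with the other two. Prelp shares 350 of its 3615 exon bases with the antisense gene Gm15851. Whether counting used strand is not stated, so reads in such shared bases cannot be assigned. Gm15851 held at most 0.672 TPM in any library.

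The promoters of 3 genes are printed: those of Aspn and Fmod, which fell with LPS, and, to set beside them, that of Bgn, the most abundant member, which did not pass the test there. Each run is the 250 bases before the RefSeq start site in GRCm38.p6, 5′ to 3′ on the plus strand, with motif matches on either strand in capitals.
Aspn chr13:49544193-49544442: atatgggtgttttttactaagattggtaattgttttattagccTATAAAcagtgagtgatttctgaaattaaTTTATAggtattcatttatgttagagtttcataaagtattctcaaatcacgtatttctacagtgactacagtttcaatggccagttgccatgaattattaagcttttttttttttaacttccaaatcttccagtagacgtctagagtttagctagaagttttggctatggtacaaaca
Fmod chr1:134037004-134037253: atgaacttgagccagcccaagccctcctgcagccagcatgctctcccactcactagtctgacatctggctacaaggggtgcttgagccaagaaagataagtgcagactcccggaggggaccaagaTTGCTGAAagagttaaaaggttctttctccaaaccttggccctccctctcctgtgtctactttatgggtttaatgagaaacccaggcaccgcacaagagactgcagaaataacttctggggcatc
Bgn chrX:73483351-73483600: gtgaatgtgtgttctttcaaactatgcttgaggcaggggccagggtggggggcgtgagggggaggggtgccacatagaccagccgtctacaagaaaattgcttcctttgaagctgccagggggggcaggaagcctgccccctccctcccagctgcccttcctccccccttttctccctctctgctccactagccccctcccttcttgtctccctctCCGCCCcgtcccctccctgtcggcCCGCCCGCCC
The capitals mark TATAAA in Aspn, at positions -207 and -178 from the start site, TTGCNNAA (a C/EBP-type site) in Fmod at -125, and 3 matches to GGGCGG (a GC box) in Bgn between -34 and -1, of which the last 2 overlap. RefSeq windows of 300 bases, from 250 before the start site to 50 after it, matched 7 of the 9 members, all but Dcn and Lum. The Aspn window was 31.0% G and C, against 51.0% for Fmod and 63.7% for Bgn. Over both strands of all 32851 windows of this length, 13.6% held TATAAA, against 2 of the 7 members (Aspn and Ogn). TTGCNNAA was in 10.8% of all windows and in 1 member, Fmod. GGGCGG was in 35.7% and in 2 members, Bgn and Podn. The kB-type pattern (GGG, any 5 bases, then CC) was in 50.8% and in 1 member, Podn. The AP-1 pattern TGANTCA (7.8%) and the CRE core TGACG (20.8%) were in 0 of the 7. These matches describe the letters of the windows and were not tested against any response.

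Values are in TPM, a length-scaled share of all transcripts, so levels can be compared between genes. The files hold no read counts, so the depth behind each value is unknown. The pair labelled APRIL differed most from the others. Across tested genes these libraries correlated at 0.850 to 0.886 with the other libraries, which correlated at 0.948 to 0.991 with each other. Their summed level of 4 Y-linked genes was 0.489 and 0.775 TPM, against 93.8 to 123 TPM in the other 8 libraries, although the labels describe male mice throughout. They are therefore called the libraries labelled APRIL, and calls of members that change when they leave the fit are given both ways. Calls in the related gene lists and cell type markers are given only from the fit with all 10 libraries. All groups carried adipocyte transcripts, with 11 of 12 marker genes at 1 TPM or more in both saline libraries. The summed adipocyte markers were 6145 to 6807 TPM with LPS, 16866 to 17283 TPM with norepinephrine, 8940 to 11041 TPM with BAFF, 3026 to 6822 TPM in the pair labelled APRIL and 9210 to 10350 TPM with saline. Fibroblast and progenitor markers were also high, at 3643 to 3739 TPM over 15 genes with saline, while 6 epithelial markers summed to 0.102 to 0.352 TPM over all libraries. In such bulk RNA, fewer cells of a type and less RNA per cell cannot be told apart.

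Bgn dominated the family in every library. It stood at 3024 ± 123 TPM in saline libraries (SD, n = 2), among the most abundant transcripts of the culture. Prelp followed at 184 ± 35.7 TPM, Dcn at 150.3 ± 32.1 TPM and Fmod at 127 ± 17.4 TPM, and in range the saline libraries of Prelp overlapped with those of Dcn, and those of Dcn with those of Fmod. Podn averaged 45.1 ± 1.81 TPM and Aspn 43.5 ± 1.84 TPM with saline, again overlapping. Ogn averaged 12.4 ± 4.96 TPM, Lum 5.77 ± 1.93 TPM and Omd 0.575 ± 0.189 TPM. Omd, best known from bone, stayed under 1 TPM in all 10 libraries and was not tested. The other 8 genes reached 1 TPM in all 10 libraries and were tested.

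**Figure D1:**
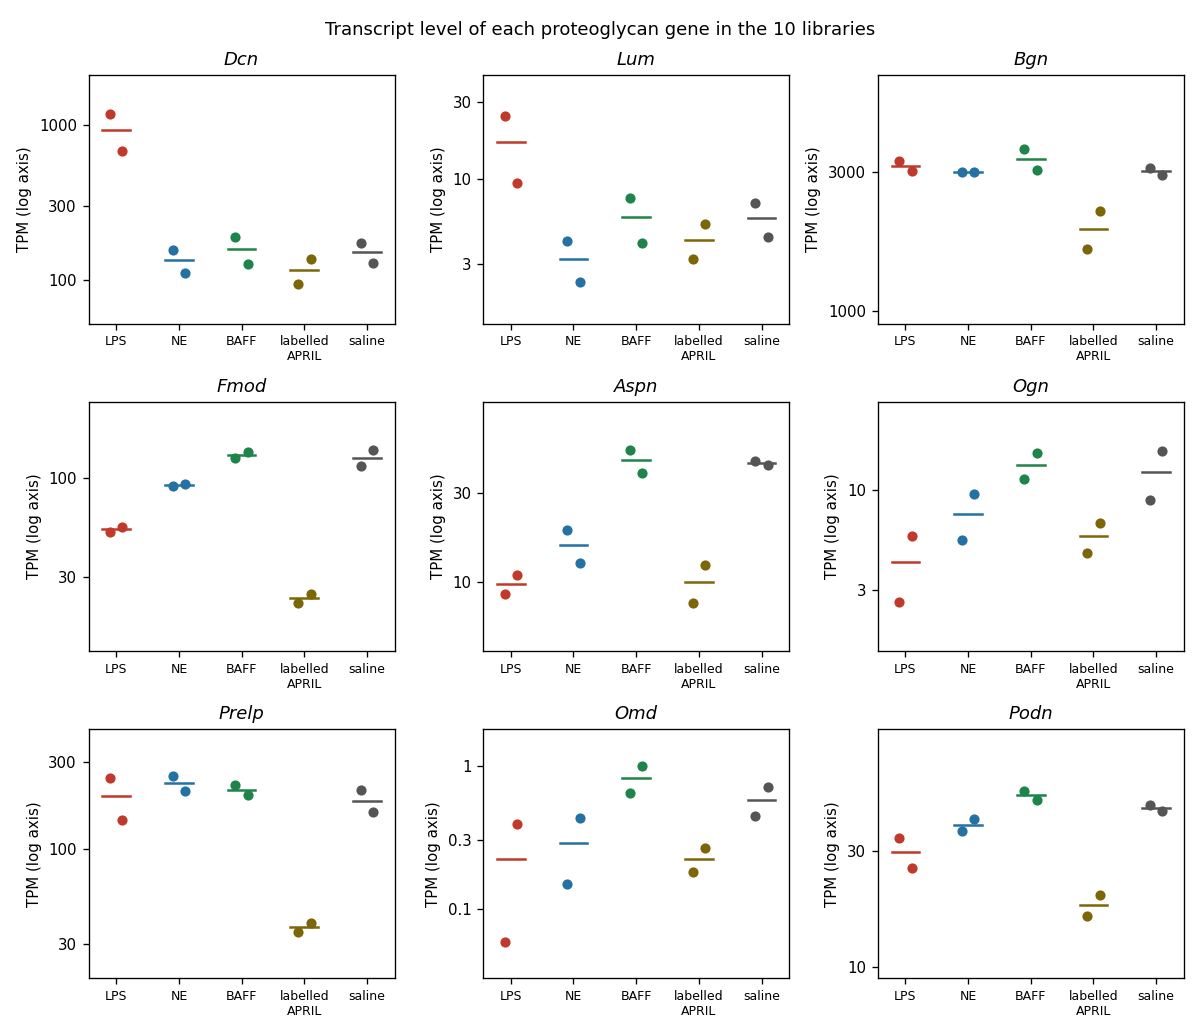
TPM (log axis) of each of the 9 genes in each library, by group; points are libraries and short lines are group means. In the LPS libraries Dcn sits above and Fmod and Aspn sit below every saline library, while Bgn overlaps between these groups.

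With LPS, decorin transcripts rose about 6-fold while fibromodulin and asporin fell. Dcn held 1184 and 682 TPM in LPS libraries, against 173 and 128 TPM in saline libraries, a ratio of means of 6.21. Fmod held 52.2 and 55.3 TPM with LPS, against 115 and 139 TPM with saline, a ratio of 0.423. Aspn held 8.71 and 10.96 TPM with LPS, against 44.8 and 42.2 TPM with saline, a ratio of 0.226. For these 3 genes the LPS libraries lay entirely beyond the saline libraries. The log2 difference in TPM + 1 was 2.59 ± 0.34 for Dcn (SE; limma adjusted p = 0.00712), -1.22 ± 0.12 for Fmod (limma adjusted p = 0.00209) and -2.05 ± 0.26 for Aspn (limma adjusted p = 0.00644). On this scale the change of genes with low TPM is understated. The test called 1 of the 8 tested members higher, against 2.87% of the 14166 genes tested, and 2 lower, against 0.932%. The Fmod call held under each of its 15 alternatives. The Dcn call did not hold without LPS replicate 1 (limma adjusted p = 0.0526), without saline replicate 2 (0.0719) or with the 4 compared libraries fitted alone (0.0573). The Aspn call did not hold without LPS replicate 1 (limma adjusted p = 0.0594), saline replicate 1 (0.0525) or saline replicate 2 (0.0607). The direction of each stayed the same throughout.

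Of the other members, Lum, which shares collagen sites with fibromodulin, held 24.4 and 9.49 TPM with LPS, against 7.14 and 4.41 TPM with saline. Both LPS libraries were above both saline libraries, but the LPS libraries differed from each other by more than the gap to saline, and the difference of 1.30 ± 0.47 did not pass (limma adjusted p = 0.22). Ogn held 2.62 and 5.77 TPM with LPS, against 8.86 and 15.9 TPM with saline (-1.38 ± 0.40, limma adjusted p = 0.116). Podn held 33.8 and 25.6 TPM with LPS, against 46.3 and 43.8 TPM with saline (-0.60 ± 0.16, limma adjusted p = 0.0903). Ogn and Podn were thus below saline in both LPS libraries without passing the test. Omd was below too, at 0.0586 and 0.388 TPM with LPS, against 0.442 and 0.709 TPM with saline. In all, both LPS libraries were above both saline libraries for 2 tested members and below for 4, against 24.2% and 25.5% of all genes tested. Bgn overlapped, with 3273 and 3029 TPM in LPS libraries and 3111 and 2937 TPM in saline libraries, and its log2 difference had a 95% interval of -0.31 to 0.43. Prelp, which links basement membranes to collagen, overlapped as well, with 244 and 144 TPM in LPS libraries and 209 and 159 TPM in saline libraries (95% interval -0.53 to 0.62). The median log2 difference of the 8 genes was -0.278, beside -0.0149 for all genes tested.

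The make-up of the family differed in the LPS libraries. Decorin made up 24.6 and 17.2% of the summed TPM of the 9 genes in LPS libraries, against 4.66 and 3.68% in saline libraries. Bgn made up 67.9 and 76.4% with LPS, against 83.7 and 84.6% with saline. The ratio of Dcn to Aspn, both of the decorin-type class, was 136 and 62.2 with LPS, against 3.86 and 3.02 with saline. The ratio of the neighbours Dcn to Lum was 48.5 and 71.9 with LPS, against 24.2 and 29.0 with saline. The summed TPM of the 9 genes was 4823 and 3963 with LPS, against 3716 and 3470 with saline. These shares and ratios restate the levels and were not tested.

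**Figure D2:**
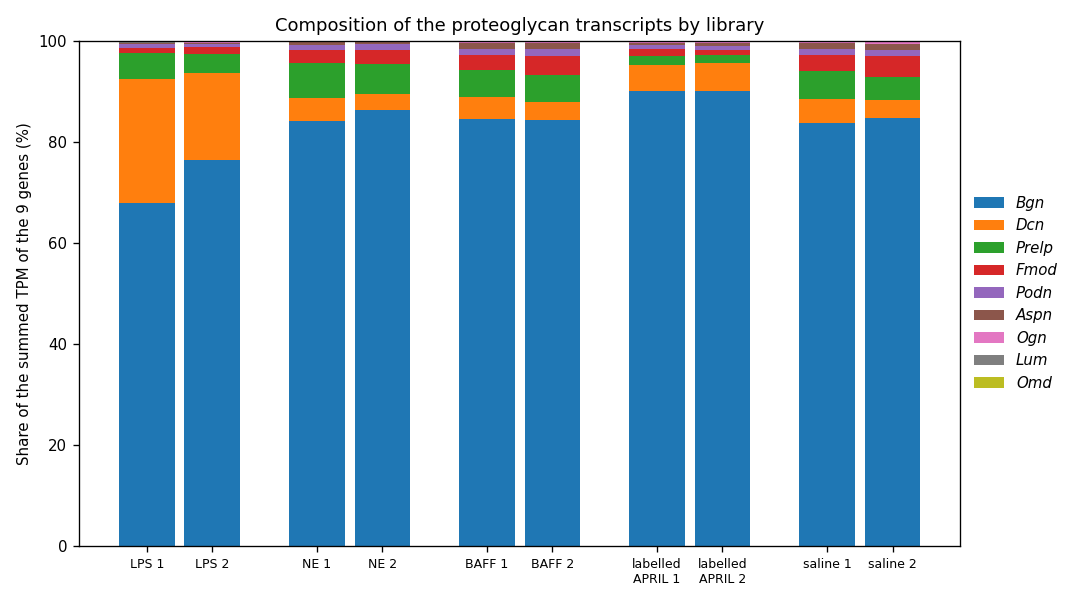
Share (%) of each gene in the summed TPM of the 9 genes, 1 stacked bar per library. Decorin takes 24.6 and 17.2% in the LPS libraries, against 3.17 to 5.60% in the other 8 libraries.

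Cell type markers also differed in the LPS libraries. Progenitor and fibroblast markers summed to 3102 to 3447 TPM with LPS, against 3643 to 3739 TPM with saline. Abundant genes of this sum moved in both directions. Gsn held 697 and 642 TPM with LPS, against 1218 and 1288 TPM with saline. Ly6a held 894 and 882 TPM with LPS, against 533 and 558 TPM with saline. Of 14 tested markers of this list, 4 had a positive difference, and the median was -0.281. Smooth muscle and pericyte markers summed to 1170 to 1346 TPM with LPS, against 1600 to 1702 TPM with saline. The adipocyte sum was lower, as given above. Of 11 tested adipocyte markers 0 were called and 0 had a positive difference, with a median of -0.613 beside -0.0149 for all genes. At an unadjusted p of 0.05, 3 of them were lower, as were 6.81% of all genes. Macrophage markers overlapped, at 405 to 1565 TPM with LPS and 439 to 1327 TPM with saline, with replicate 1 the higher library in both groups. Of 14 tested progenitor and fibroblast markers, Pi16 and Pdgfra were called higher and Gsn lower. Pi16 was under 1 TPM in both saline libraries. Of 10 tested smooth muscle and pericyte markers, Myh11 and Cspg4 were called lower and 0 had a positive difference. Of all genes, 2.87% were called higher and 0.932% lower. Pdgfra, the receptor that marks adipose progenitors, held 124 and 135 TPM with LPS, against 70.3 and 66.1 TPM with saline (0.92 ± 0.18, limma adjusted p = 0.038). Mitochondrially encoded genes made up 15.9 and 17.1% of the listed TPM with LPS, against 20.2 and 22.4% with saline, and the decorin, fibromodulin and asporin calls held with these genes left out. The part of these cell types in the decorin, fibromodulin and asporin differences was not tested.

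With norepinephrine, limma called 0 of the 8 tested members, against 0.699% of all genes, while 2 members passed an unadjusted p of 0.05, as did 17.6% of all genes. These were Aspn and Fmod. Aspn held 19.1 and 12.7 TPM with norepinephrine, against 44.8 and 42.2 TPM with saline (-1.42 ± 0.26, limma adjusted p = 0.0624). With the libraries labelled APRIL left out of the fit, Aspn passed (limma adjusted p = 0.023). That fit also called more of all genes than the 0.699% above, and both counts are given below. Fmod held 90.4 and 93.1 TPM with norepinephrine, against 115 and 139 TPM with saline (-0.46 ± 0.12, limma adjusted p = 0.112). The norepinephrine libraries were also below saline for Lum, at 4.14 and 2.30 TPM, against 7.14 and 4.41 TPM with saline, and for Podn, at 36.3 and 40.6 TPM, against 46.3 and 43.8 TPM with saline. Both libraries lay below both saline libraries for 4 of the 8 members, against 22.9% of all genes tested, and above for 0, against 34%. Dcn overlapped, with 157 and 110.4 TPM in norepinephrine libraries and 173 and 128 TPM in saline libraries, and so did Bgn, Ogn and Prelp. The summed adipocyte markers, given above, were higher with norepinephrine than with saline. Their largest part, Fabp4, held 11391 and 11802 TPM with norepinephrine, against 5452 and 6287 TPM with saline. Adipoq overlapped, at 918 and 934 TPM with norepinephrine and 925 and 1062 TPM with saline. Of 11 tested adipocyte markers, 9 had a positive difference, with a median of 0.644 beside 0.0404 for all genes. At an unadjusted p of 0.05, 4 of these 11 were higher and 0 lower, and 0 were called. The smooth muscle and pericyte sum was lower, at 977 to 1137 TPM with norepinephrine, against 1600 to 1702 TPM with saline. Its largest part, Acta2, held 440 and 530 TPM with norepinephrine, against 839 and 932 TPM with saline. Cspg4 went the other way, with 18.3 and 23.1 TPM with norepinephrine, against 9.61 and 8.56 TPM with saline. Of 10 tested markers of this list, 3 had a positive difference. At an unadjusted p of 0.05, 2 were higher and 4 lower, and 0 were called. Mitochondrially encoded genes made up 15.9 and 16.9% with norepinephrine, against 20.2 and 22.4% with saline. The part of these markers and genes in the members' values was not tested.

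Set directly against norepinephrine, LPS gave higher decorin and lumican and lower fibromodulin transcripts. Dcn held 1184 and 682 TPM with LPS, against 157 and 110.4 TPM with norepinephrine (2.76 ± 0.34, limma adjusted p = 0.00509). Lum held 24.4 and 9.49 TPM with LPS, against 4.14 and 2.30 TPM with norepinephrine (1.99 ± 0.47, limma adjusted p = 0.0457). Fmod held 52.2 and 55.3 TPM with LPS, against 90.4 and 93.1 TPM with norepinephrine (-0.76 ± 0.12, limma adjusted p = 0.0109). So 2 of 8 members were called higher with LPS, against 3.62% of all genes, and 1 lower, against 4.19%. The Dcn call held under all 15 alternatives. The Lum call did not hold without LPS replicate 1 (limma adjusted p = 0.166), norepinephrine replicate 1 (0.114) or norepinephrine replicate 2 (0.183), nor without a filter on low values (0.103), without a mean-variance trend (0.0513) or with the 4 libraries alone (0.128). The Fmod call did not hold without LPS replicate 1 (limma adjusted p = 0.0675), norepinephrine replicate 1 (0.0699) or norepinephrine replicate 2 (0.0627). Aspn was lower in both LPS libraries but did not pass (-0.62 ± 0.26, limma adjusted p = 0.191), with a 95% interval of -1.23 to -0.015 before adjustment.

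BAFF left no detectable difference in the family at this sample size. The limma test called 0 of the 8 members, against 0.0141% of all genes tested, and 0 passed an unadjusted p of 0.05, against 2.84%. Dcn held 188 and 126 TPM with BAFF, against 173 and 128 TPM with saline. Fmod held 128 and 137 TPM with BAFF, against 115 and 139 TPM with saline, and Aspn 51.2 and 38.7 TPM with BAFF, against 44.8 and 42.2 TPM with saline. The log2 differences ran between -0.0097 (Lum) and 0.20 (Prelp). The 95% intervals, before adjustment, give the range of differences that these pairs of libraries leave possible. They were -0.21 to 0.33 for Fmod, -0.24 to 0.51 for Bgn, -0.57 to 0.64 for Aspn, -0.74 to 0.84 for Dcn and -1.11 to 1.09 for Lum. Podn, with 53.1 and 48.8 TPM with BAFF, against 46.3 and 43.8 TPM with saline, was the sole member with both libraries above saline, where 40.4% of all genes were. The median of the 8 members was 0.0992, beside 0.106 for all genes. Under median-ratio scaling the all-gene median was -0.0052, and the differences of Dcn, Fmod and Aspn turned slightly negative.

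**Figure D3:**
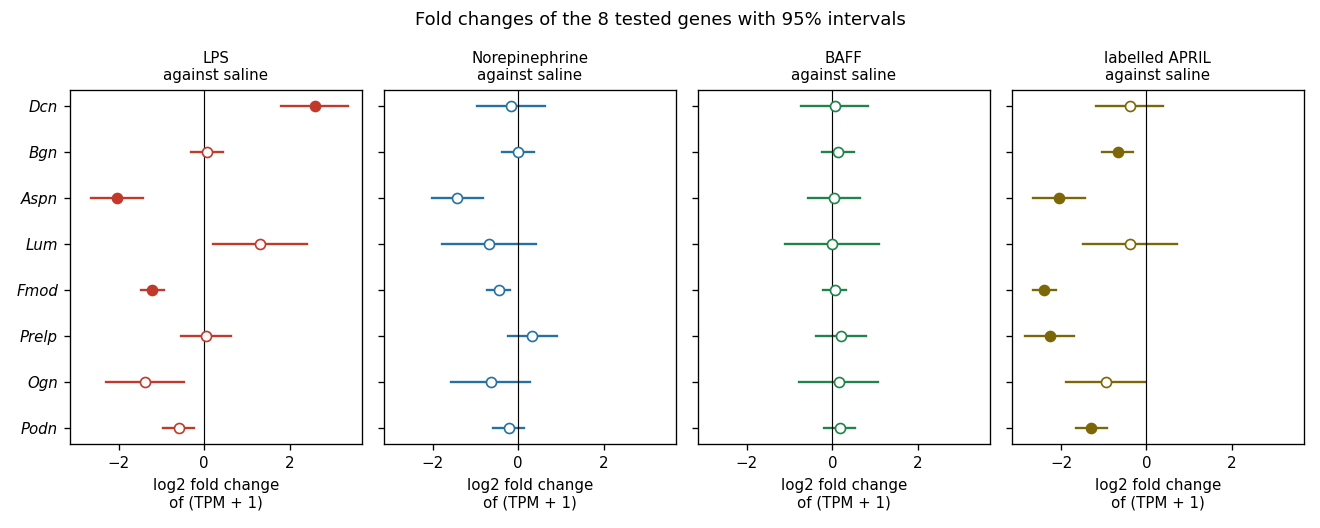
Log2 difference in TPM + 1 from saline for the 8 tested genes, with 95% intervals, in each of 4 comparisons; filled points passed an adjusted p of 0.05. All 8 BAFF points lie between -0.0097 and 0.20, and the 3 filled LPS points are Dcn (2.59), Fmod (-1.22) and Aspn (-2.05).

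In the libraries labelled APRIL, 5 of the 8 tested members were called lower than with saline, against 25% of all genes, and 0 higher, against 33.1%. Fmod held 22.1 and 24.5 TPM in the libraries labelled APRIL, against 115 and 139 TPM with saline (-2.40 ± 0.12, limma adjusted p = 8.77e-06). Prelp held 35.2 and 39.1 TPM, against 209 and 159 TPM with saline (-2.27 ± 0.25, limma adjusted p = 0.000182). Aspn held 7.73 and 12.4 TPM, against 44.8 and 42.2 TPM with saline (-2.04 ± 0.26, limma adjusted p = 0.000392). Podn held 16.1 and 19.8 TPM, against 46.3 and 43.8 TPM with saline (-1.29 ± 0.16, limma adjusted p = 0.000304). Bgn held 1631 and 2202 TPM, against 3111 and 2937 TPM with saline (-0.67 ± 0.16, limma adjusted p = 0.00808). For all 5 genes, and for Ogn, both libraries labelled APRIL lay below both saline libraries, as did 35.2% of all genes tested. The Bgn call did not hold without saline replicate 1 (limma adjusted p = 0.0508) or with the 4 libraries alone (0.0501), and the other 4 calls held under each of 13 alternatives. Dcn, with 93.2 and 137 TPM under the APRIL label, against 173 and 128 TPM with saline, overlapped, as did Lum. Ogn was lower without passing, at 4.72 and 6.76 TPM in the libraries labelled APRIL, against 8.86 and 15.9 TPM with saline (limma adjusted p = 0.0711). The median of the 8 genes was -1.12, beside 0.0794 for all genes (-0.0234 under median-ratio scaling).

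These libraries differed from saline in 58.1% of all genes tested. Fibroblast and progenitor markers summed to 1918 to 2041 TPM in them, against 3643 to 3739 TPM with saline. Smooth muscle and pericyte markers summed to 515 to 779 TPM, against 1600 to 1702 TPM with saline. Of 14 tested markers of the first list, 9 were called lower and 1 higher, and of 10 of the second, 8 lower and 1 higher. Of 11 tested adipocyte markers, 5 were called lower and 1 higher, beside 25% and 33.1% of all genes. The markers called higher were Clec3b, Pdgfrb and Pparg. Clec3b held 2.98 and 5.10 TPM, against 1.90 and 1.08 TPM with saline. Pparg held 313 and 177 TPM, against 80.7 and 88.5 TPM with saline. The effect of APRIL, the absence of Y-linked transcripts and the marker levels cannot be told apart in these libraries. Set against them, the BAFF libraries were higher for 6 of 8 members, against 28.3% of all genes, and lower for 0, against 29%. These were Bgn (0.81 ± 0.16, limma adjusted p = 0.00348), Fmod (2.46 ± 0.12, 8.43e-06), Aspn (2.07 ± 0.26, 0.00039), Ogn (1.10 ± 0.40, 0.044), Prelp (2.47 ± 0.25, 0.000135) and Podn (1.46 ± 0.16, 0.000184). The Ogn call did not hold when any 1 of the 4 compared libraries was left out (limma adjusted p = 0.0666 to 0.193), nor with a pseudocount of 0.1 (0.0514), without a filter on low values (0.089) or without mitochondrial genes (0.0622). Dcn held 188 and 126 TPM with BAFF, against 93.2 and 137 TPM in the libraries labelled APRIL (limma adjusted p = 0.297, not called).

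Over the 8 libraries of LPS, norepinephrine, BAFF and saline, a moderated F test asked whether a gene differed among any of the 4 groups. It called 4 of 8 members, against 12% of all genes: Fmod (limma adjusted p = 0.00424), Aspn (0.00636), Dcn (0.0111) and Podn (0.0498). Podn lost this call, leaving 3 members, with a pseudocount of 0.1 or 0.5, without a filter, under median-ratio scaling, without a trend, and when any 1 of the 8 libraries except LPS replicate 1 was left out. Fmod, Aspn and Dcn kept it under all of these. For Fmod the 4 groups lay in the order LPS, norepinephrine, saline and BAFF by mean, and the ranges of BAFF and saline overlapped while LPS and norepinephrine did not overlap with any other group. For Aspn the order was LPS, norepinephrine, saline and BAFF again, and only BAFF and saline overlapped. For Dcn, norepinephrine, saline and BAFF overlapped, and the LPS libraries stood above all 3. Lum (limma adjusted p = 0.125), Ogn (0.124), Bgn (0.654) and Prelp (0.693) were not called. Bgn means lay between 3003 TPM with norepinephrine and 3331 TPM with BAFF over these 4 groups.

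Of the remaining genes of the family, Kera, Epyc, Chad and Nyx stayed near or under 1 TPM in every library. Of the 5 that could be tested, 0 were called with LPS, norepinephrine or BAFF. Ecm2, whose product is close to decorin in its repeats, held 0.950 and 0.984 TPM with LPS, against 1.84 and 1.83 TPM with saline (-0.53, limma adjusted p = 0.258). Tsku, a secreted relative made in fat and liver, varied from 5.35 to 34.1 TPM, both extremes being libraries labelled APRIL. In the libraries labelled APRIL, Podnl1, the paralog of Podn, was lower, at 0.801 and 0.638 TPM, against 2.97 and 2.29 TPM with saline (-1.07 ± 0.15, limma adjusted p = 6e-04). Chadl was higher, at 3.42 and 2.13 TPM, against 1.04 and 1.01 TPM with saline (0.88 ± 0.22, limma adjusted p = 0.0105).

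Of 26 tested enzymes that build the sulfated chains of these proteins, 1 was called higher and 0 lower with LPS, with a median of 0.045. For this list and those that follow, the shares of all genes called with LPS were 2.87% higher and 0.932% lower, and 1 of 26 is near that background. It was Chst11, a chondroitin 4-sulfotransferase, with 16.1 and 14.8 TPM with LPS, against 9.21 and 9.23 TPM with saline (0.69, limma adjusted p = 0.0246). The collagens, fibrillins and other fibrillar partners had 0 of 22 called with LPS and a median of -0.459, with 11 lower at an unadjusted p of 0.05, as were 6.81% of all genes. Other proteoglycans had 3 of 20 called higher and 1 lower, with a median of 0.464. At an unadjusted p of 0.05, 11 of these 20 were higher and 2 lower, beside 9.67% and 6.81% of all genes. The cell-surface syndecan Sdc4 held 162 and 155 TPM with LPS, against 90.1 and 83.1 TPM with saline (0.86, limma adjusted p = 0.0029). The heparan sulfate proteoglycan agrin (Agrn) held 35.5 and 30.1 TPM with LPS, against 10.95 and 11.8 TPM with saline (1.44, limma adjusted p = 0.00525). Sdc3 held 85.9 and 62.9 TPM with LPS, against 39.8 and 28.0 TPM with saline (1.12, limma adjusted p = 0.0397). Cspg4 (NG2), a pericyte and progenitor proteoglycan, was the gene called lower, with 3.41 and 4.39 TPM with LPS, against 9.61 and 8.56 TPM with saline (-1.05, limma adjusted p = 0.0489).

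Among 16 TGF-beta ligands, receptors and readouts, 1 was called higher and 2 lower with LPS, beside 2.87% and 0.932% of all genes, with a median of 0.00113. Ltbp2, which binds microfibrils, held 541 and 614 TPM with LPS, against 333 and 322 TPM with saline (0.81, limma adjusted p = 0.0139). The ligand Tgfb3 held 10.7 and 8.89 TPM with LPS, against 20.3 and 23.6 TPM with saline (-1.09, limma adjusted p = 0.00644). Tgfbi, a TGF-beta-induced matrix protein, held 27.1 and 21.3 TPM with LPS, against 53.7 and 46.4 TPM with saline (-1.02, limma adjusted p = 0.0168). Of 14 receptors reported for soluble decorin, biglycan and lumican, 1 was higher and 0 lower, beside the same shares of all genes. This was the ATP-gated channel P2rx4, with 168 and 134 TPM with LPS, against 80.8 and 66.6 TPM with saline (1.03, limma adjusted p = 0.0182). At an unadjusted p of 0.05, 7 of the 14 receptors were higher and 0 lower, beside 9.67% and 6.81% of all genes. A positive difference was found for 13 of them, with a median of 0.401 beside -0.0149 for all genes. Of 14 proteases and inhibitors reported for these proteoglycans, 2 were higher and 0 lower. Mmp3 (stromelysin 1) held 1306 and 405 TPM with LPS, against 25.8 and 10.53 TPM with saline (5.37, limma adjusted p = 0.007). Its inhibitor Timp1 held 4388 and 3121 TPM with LPS, against 1249.5 and 1083 TPM with saline (1.67, limma adjusted p = 0.00743).

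**Figure D4:**
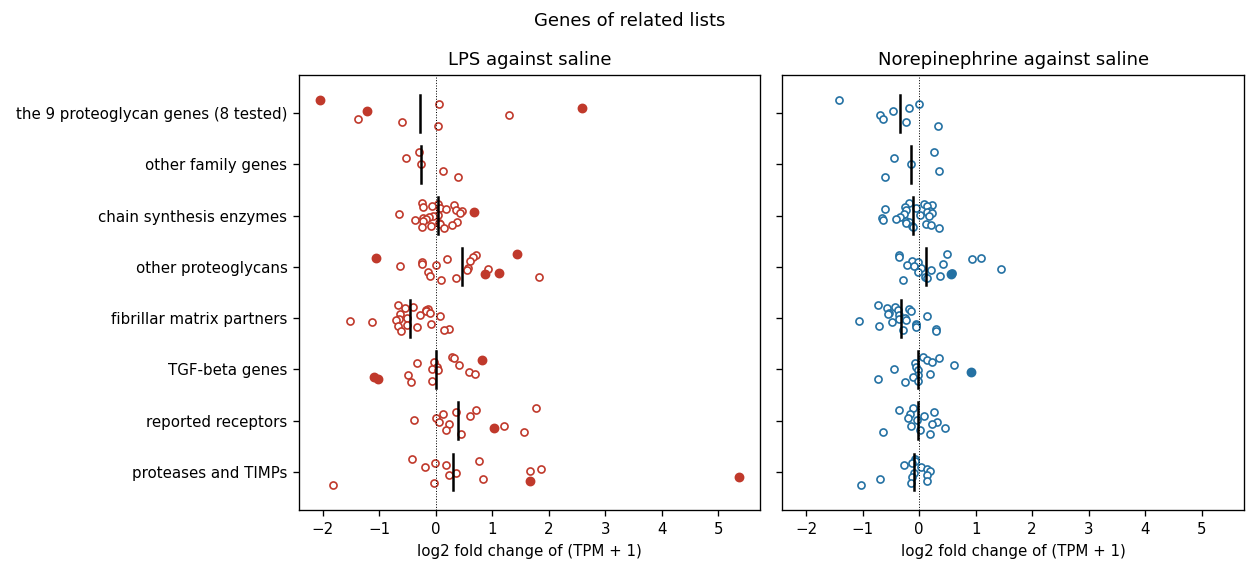
Log2 difference in TPM + 1 of each tested gene of the member family and related lists, for LPS and for norepinephrine against saline; filled points passed an adjusted p of 0.05 and black lines are list medians. With LPS the fibrillar matrix partners have a median of -0.459 and other proteoglycans of 0.464.

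With norepinephrine, 2 genes of these lists were called, both higher, beside 0.699% of all genes called in either direction. They were 1 of 20 tested other proteoglycans and 1 of 16 TGF-beta genes, with 0 called in the remaining lists. Sdc4 held 134 and 124 TPM with norepinephrine, against 90.1 and 83.1 TPM with saline (0.57, limma adjusted p = 0.0476). Smad7, an inhibitor of TGF-beta receptor signalling, held 19.5 and 18.9 TPM with norepinephrine, against 8.47 and 10.9 TPM with saline (0.93, limma adjusted p = 0.0476). When any 1 of the 4 compared libraries was left out, 0 to 1 of all genes were called, so at least 1 of these calls was lost each time. The fibrillar partners had a median of -0.316 with 0 of 22 called. With BAFF, 0 genes of any of these lists were called, and 1 of all of them passed an unadjusted p of 0.05.

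In the libraries labelled APRIL, 19 of 22 fibrillar partners were lower than with saline and 1 was higher, with a median of -1.6, beside 25% and 33.1% of all genes. Thbs1 (thrombospondin 1) held 141 and 147 TPM there, against 1020.3 and 817 TPM with saline. Col5a1, the collagen V chain that starts fibrils, held 92.2 and 99.7 TPM, against 494 and 442 TPM with saline, and Fbln1 10.2 and 10.4 TPM, against 52.6 and 46.2 TPM with saline. Of the 26 chain enzymes, 13 were lower and 6 higher, and of 20 other proteoglycans, 10 were lower and 2 higher. Chst12 held 5.63 and 4.28 TPM in the libraries labelled APRIL, against 31.6 and 26.8 TPM with saline, and Sdc4 held 32.3 and 31.2 TPM, against 90.1 and 83.1 TPM with saline. TGF-beta genes split into 5 higher and 6 lower of 16. Smad7 held 151 and 176 TPM in the libraries labelled APRIL, against 8.47 and 10.9 TPM with saline (3.95, limma adjusted p = 3.49e-06). Receptors split into 5 higher and 2 lower of 14, and proteases into 2 higher and 6 lower of 14, among them Bmp1, the enzyme that matures biglycan, at 51.0 and 64.1 TPM in the libraries labelled APRIL, against 170 and 154 TPM with saline.

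The genes whose pattern was most like each member were found by Pearson correlation of log2(TPM + 1) over the 8 libraries not labelled APRIL, among protein-coding genes averaging at least 5 TPM. The libraries of a group share their treatment, so these values describe the 4 groups more than 8 separate points. For Dcn these were Mmp3 (r = 0.998; 0.925 over all 10 libraries) and Artn, the neurotrophic ligand artemin (0.997; 0.984 over 10). For Fmod they were Gpx3, a secreted glutathione peroxidase (0.990; 0.707 over 10), and Pappa (0.985; 0.758 over 10). For Aspn they were Ggt5 (0.980; 0.935 over 10) and Tbpl1 (0.978; -0.12 over 10). For Lum they were Pi15 (0.985; 0.670 over 10) and Rgs3 (0.982; 0.919 over 10), and Ogn was close to the Wnt antagonist Sfrp1 (0.985; 0.533 over 10). For Podn they were the smooth muscle gene Lmod1 (0.985; 0.954 over 10) and Dnajc8 (0.969; 0.403 over 10). Bgn was nearest to the secreted matrix protein Ssc5d (0.960; 0.984 over 10) and to Lrwd1 (0.944; -0.61 over 10), and Prelp to the lysosomal genes Ctsd (0.971; 0.811 over 10) and Pld3 (0.969; 0.673 over 10). Several of these likenesses, such as those of Tbpl1 and Lrwd1, did not extend to the libraries labelled APRIL.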

How the data were processed

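RNA was measured in 10 libraries from 5 groups of 2. Per the labels, total RNA was made into TruSeq libraries. Per the submitters' processing notes, the authors used kallisto (version not given) and the mm10 genome. Per the file headers, the deposited values are TPM for 28987 Ensembl gene IDs, each library summing to 953553 to 964726. The annotation release, the summing to genes and the strand setting are not given in the sources used here. Symbols and positions came from GENCODE M21, which matched 27458 IDs.

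A gene entered the test when 2 or more libraries held 1 TPM or more, which left 14166. The limma package 3.58.1 (R 4.3.3) was fitted to log2(TPM + 1) over all 10 libraries, as 5 group means with a mean-variance trend. This left 5 residual degrees of freedom. P-values were adjusted by Benjamini and Hochberg over all genes in each of 6 comparisons, with 0.05 as the threshold. The F test used the 8 libraries not labelled APRIL. The procedure was tested on simulated data. Alternatives changed the pseudocount, filter, scaling, trend, block and libraries. Those of the F test and 2 block fits were added after values were seen.

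The members and gene lists were chosen with earlier results of these data known. The text names all members, up to 3 called genes per list and comparison by smallest p, called marker genes, and the 2 nearest patterns per member, of which 1 gene is not reported here. Tsku, Ecm2 and the range of the other family genes were named after their values were seen. Promoter windows are RefSeq's for GRCm38.p6. The plots were made with matplotlib 3.10.9.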

Additional observations from a re-analysis of the deposited data

How the results depend on the processing

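The files hold no counts, so counting precision is unknown, and groups of 2 limit every test. Of 17 called member results, 239 alternative values gave 215 with the call kept, 24 with it lost and 0 reversed. Of 31 uncalled ones, 457 values gave 420 with the same outcome, 14 newly past the threshold and 23 with the opposite sign. Where a replicate was left out, the lone library was assumed to vary like the other groups. For values that moved, the cause was not tested.

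Genes called with LPS against saline numbered 539, against 922 without the libraries labelled APRIL, 226 with the 4 libraries alone and 112 to 374 with a replicate left out. With norepinephrine against saline they numbered 99, against 43 with a pseudocount of 0.1, 55 with no filter, 65 without mitochondrial genes, 62 without a trend, 843 without the libraries labelled APRIL and 0 to 1 with a replicate left out. With BAFF against saline they numbered 2, against 0 with a pseudocount of 0.1 or with the 4 libraries alone, 12 with no filter and 2 to 4 with a replicate left out. LPS against norepinephrine gave 1107, against 719 with no filter, 2176 without the libraries labelled APRIL, 628 with the 4 libraries alone and 245 to 452 with a replicate left out. The F test gave 1702, and 684 to 1467 with a replicate left out.

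Members called with LPS against saline were 1 higher and 2 lower. With the 4 libraries alone 0 were higher, and leaving out a replicate gave 0 to 1 higher and 1 to 2 lower. With norepinephrine 0 were called, and 1 (Aspn) was lower without the libraries labelled APRIL. LPS against norepinephrine gave 2 higher, but 1 (Dcn) with no filter, without a trend or with the 4 libraries alone, and 1 to 2 with a replicate left out. It gave 1 lower, and 0 to 1 with a replicate left out.

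The replicate numbers are shared across groups, and no label says that a number marks a shared source, so no pairing was assumed. Deviations of same-numbered libraries correlated at 0.272 to 0.479 among LPS, norepinephrine, BAFF and saline and at -0.11 to 0.03 with the libraries labelled APRIL. With a replicate block, norepinephrine against saline gave 167 genes, the F test 2937 genes and 6 members, and LPS against norepinephrine 2 members lower (Fmod and Ogn). Ogn also passed against saline under the block with LPS (adjusted p = 0.00512) and in the libraries labelled APRIL (0.00161). A block without the libraries labelled APRIL, a combination chosen after seeing the data, gave 1647 genes with LPS, 1648 with norepinephrine and 3147 for LPS against norepinephrine. Under it the members called with LPS were 2 higher (Dcn and Lum) and 4 lower (Aspn, Fmod, Ogn and Podn), those with norepinephrine 3 lower (Aspn, Fmod and Ogn), and those of LPS against norepinephrine 2 lower. For BAFF against the libraries labelled APRIL, the block gave 8383 genes and 6 members, and the pairing with crossed numbers 8594 genes and 7 members, beside 8115 and 6 without a block.

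Every member value that changed sign was uncalled. BAFF against saline gave -0.072 for Dcn, -0.062 for Fmod and -0.091 for Aspn under median-ratio scaling, and -0.011 for Dcn and -0.030 for Aspn without mitochondrial genes. With a replicate left out it ran from -0.23 to 0.34 for Dcn, -0.40 to 0.38 for Lum, -0.075 to 0.20 for Fmod, -0.17 to 0.23 for Aspn and -0.24 to 0.54 for Ogn. LPS against saline gave -0.027 for Bgn and -0.044 for Prelp without mitochondrial genes, and -0.34 to 0.42 for Prelp with a replicate left out. With a replicate left out, norepinephrine against saline ran from -0.43 to 0.078 for Dcn and -0.051 to 0.032 for Bgn, LPS against norepinephrine from -0.67 to 0.090 for Prelp, and BAFF against the libraries labelled APRIL from -0.024 to 0.76 for Lum.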

Other observations

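Some genes of the related lists differed directly between LPS and norepinephrine. Cspg4 (NG2) held 3.41 and 4.39 TPM with LPS, against 18.3 and 23.1 TPM with norepinephrine (-2.15 ± 0.23, limma adjusted p = 0.00293). Tgfb3 held 10.7 and 8.89 TPM with LPS, against 20.96 and 19.5 TPM with norepinephrine (-0.98 ± 0.14, limma adjusted p = 0.00886). Of 20 other proteoglycans tested between these groups, 3 were higher and 2 lower with LPS, and of 14 receptors 3 were higher and 0 lower, against 3.62% and 4.19% of all genes.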
